A study of Mus musculus with 9 samples.

Results

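The GIMAP genes encode GTPases of immunity-associated proteins, a family of GTP-binding proteins found chiefly in lymphocytes. Like septins, to which they are related in structure, GIMAP proteins bind GTP. Some of them assemble on intracellular membranes, and several are needed for the survival of resting lymphocytes. Loss of Gimap5 causes a lack of peripheral T cells in rats and mice, Gimap1 is needed for mature T and B cells to persist, and Gimap4 has been described as speeding the death of T cells. The 8 mouse members Gimap1, Gimap3, Gimap4, Gimap5, Gimap6, Gimap7, Gimap8 and Gimap9 were taken by name from the 25160 genes of the count table, and the transcript row of each gene was selected on its total count, the highest over all 9 libraries. The family itself was proposed with its levels in these libraries known. Gimap5 is also an older name of Gimap3, and both were matched by their current symbols. All 8 passed the filter on low counts.

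CD4+ T cells sorted as naive from spleens of C57BL/6 mice were cultured on plates coated with 1 µg/ml of an antibody to CD3e, which all groups received. Wild-type cells were also given 19 µg/ml of either an isotype control antibody (WT isotype) or an antibody to CD40L (WT anti-CD40L). Cells with the genotype label "cre" and the title label KO, from mice that lack CD40L in T cells according to the series' design, were given the isotype antibody (KO isotype). No source used here states the Cre driver, the culture time or whether replicates are separate animals, and p-values therefore measure the spread between libraries, which may be technical. Each group had 3 libraries of bulk RNA, in which fewer cells of a type and less RNA per cell cannot be told apart.

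Library totals ran from 5316482 to 15565711 counts. WT anti-CD40L replicate 3 was the smallest library and lay apart from the other 8, with a first principal component score of 86.96 where theirs ran from -19.1 to 10.22. Cd40lg, the gene named as deleted, was at 161 ± 24.5 CPM in WT isotype and 144 ± 7.13 CPM (SD, n = 3) in the libraries labelled KO (log2 fold change -0.17, SE 0.13; adjusted p = 0.935 by edgeR), so these libraries are named by their label below. No source used here states which part of the gene was deleted, so a count over the transcript neither bears out the label nor goes against it. CPM is a count scaled to library size. The 9 T cell markers summed to 4238 to 4809 CPM over all libraries.

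The 8 genes lie side by side on chromosome 6, from 48647186 to 48770851 in GRCm38, a stretch of 123.7 kb. In order they are Gimap8, Gimap9, Gimap4, Gimap6, Gimap7, Gimap1, Gimap5 and Gimap3. Gimap6 and Gimap3 are on the minus strand and the others on the plus strand. Gimap4, the member with the largest difference below, spans 48684578 to 48692062 and its counted transcript has 3 exons. Gimap3 spans 48764464 to 48770851 and Gimap8 spans 48647186 to 48660875, each with 5 exons.

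Promoter sequence is shown for the 3 members that were lower in WT anti-CD40L than in both isotype groups, Gimap4, Gimap8 and Gimap3, and for Gimap5, the closest relative of Gimap3, which was not called. Each line gives the 250 bases before the start annotated by RefSeq, 5′ to 3′ in the direction of the gene (RefSeq, GRCm38.p6), with matches to the motifs searched in capitals.
Gimap4, chr6:48684328-48684577, plus strand: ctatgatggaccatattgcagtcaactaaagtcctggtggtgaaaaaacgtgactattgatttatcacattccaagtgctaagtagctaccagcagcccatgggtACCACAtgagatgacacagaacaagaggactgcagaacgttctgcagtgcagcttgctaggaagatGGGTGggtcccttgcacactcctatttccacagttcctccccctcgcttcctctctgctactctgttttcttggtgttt
Gimap8, chr6:48646984-48647233, plus strand: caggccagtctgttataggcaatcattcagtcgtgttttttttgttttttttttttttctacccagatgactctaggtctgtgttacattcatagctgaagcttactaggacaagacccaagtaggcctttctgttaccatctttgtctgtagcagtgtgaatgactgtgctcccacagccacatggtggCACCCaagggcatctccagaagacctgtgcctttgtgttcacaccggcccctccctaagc
Gimap3, chr6:48770852-48771101, minus strand: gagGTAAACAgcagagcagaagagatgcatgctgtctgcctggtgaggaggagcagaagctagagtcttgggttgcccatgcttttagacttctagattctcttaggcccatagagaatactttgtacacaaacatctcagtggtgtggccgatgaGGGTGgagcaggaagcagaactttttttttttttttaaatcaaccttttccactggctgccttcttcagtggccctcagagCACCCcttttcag
Gimap5, chr6:48745947-48746196, plus strand: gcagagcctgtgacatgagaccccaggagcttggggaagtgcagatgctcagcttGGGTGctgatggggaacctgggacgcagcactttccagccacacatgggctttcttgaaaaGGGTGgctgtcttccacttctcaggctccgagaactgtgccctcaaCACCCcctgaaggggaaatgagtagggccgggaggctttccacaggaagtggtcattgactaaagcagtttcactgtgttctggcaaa
All 8 members had a promoter entry, and for Gimap8, which had several, the one farthest upstream was used. The entry used for Gimap8 ends inside the gene span given above, so the last bases of its line fall within that span. The entry of Gimap9, not shown, ends at 48676134, inside a gene span that starts at 48676121. Its CACCC match, counted below, is the last 5 bases of the entry and lies within that span. The letters CACCC, bound by KLF factors, were found on either strand in 5 of the 8 promoters (Gimap3, Gimap4, Gimap5, Gimap8 and Gimap9), against 52% of all 32851 promoter entries. TGTGGT, bound by RUNX factors, was found in 3 of 8 (Gimap1, Gimap4 and Gimap7), against 14.1% of all. The FOXO motif GTAAACA was found in Gimap3 alone (3.17% of all) and the STAT motif TTCNNNGAA in Gimap6 alone (7.02% of all). No promoter of the 8 held CCGGAA (ETS, 12% of all), CTTTGA (TCF/LEF, 13.8%), TGACGTCA (CREB, 1.55%), CACGTG (E-box, 6.02%) or TGGGAA (Ikaros or RBPJ, 21.6%). No matches overlapped one another, and a match is a description of letters and not a site of binding.

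Gimap3 and Gimap5 were the only members whose counted transcripts shared 50-base stretches with each other: 190 such windows, or 9.07% of those in Gimap3 and 9.98% of those in Gimap5. The longest identical run had 140 bases, lies within the coding part of both transcripts (bases 789 to 928 of Gimap3 and 427 to 566 of Gimap5, GENCODE vM21) and shows why reads of the genes can be hard to assign.
Gimap3 and Gimap5, shared run: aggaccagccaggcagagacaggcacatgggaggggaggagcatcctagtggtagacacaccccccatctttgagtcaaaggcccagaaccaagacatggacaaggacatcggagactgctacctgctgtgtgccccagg
No source used here says how reads with several alignments were counted, so the split of counts between Gimap3 and Gimap5 is uncertain. Gimap1 shared 10.3% of its windows with the read-through gene model Gm28053 and 7.34% with its antisense gene Gimap1os. Gimap5 shared 5.51% and Gimap7 2.62% with Gm28053. Gimap4, Gimap6, Gimap8 and Gimap9 shared no window with any other gene.

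Most of the family was well expressed in these cells. Gimap3 ranked 269th and Gimap6 324th of 11256 tested genes by mean CPM, Gimap4 719th, and Gimap7 8060th. In CPM per kilobase of transcript, WT isotype cells had 327 ± 11.4 of Gimap6, which has been described as a partner of the autophagy protein GABARAPL2, 285 ± 10.6 of Gimap3 and 183 ± 19.9 of Gimap4 (SD, n = 3). These 3 were followed by Gimap1 at 85.1 ± 1.14, Gimap9 at 79.2 ± 3.03, Gimap8 at 50.9 ± 3.03, Gimap5 at 35.3 ± 5.06 and Gimap7 at 10.7 ± 3.59. In WT isotype no neighbours in this order overlapped. The same order of means held in the other groups, but Gimap4, Gimap1 and Gimap9 overlapped with their neighbours in WT anti-CD40L, and Gimap6 with Gimap3 and Gimap1 with Gimap9 in KO isotype. Levels between genes rest on the length of 1 transcript each.

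**Figure D1:**
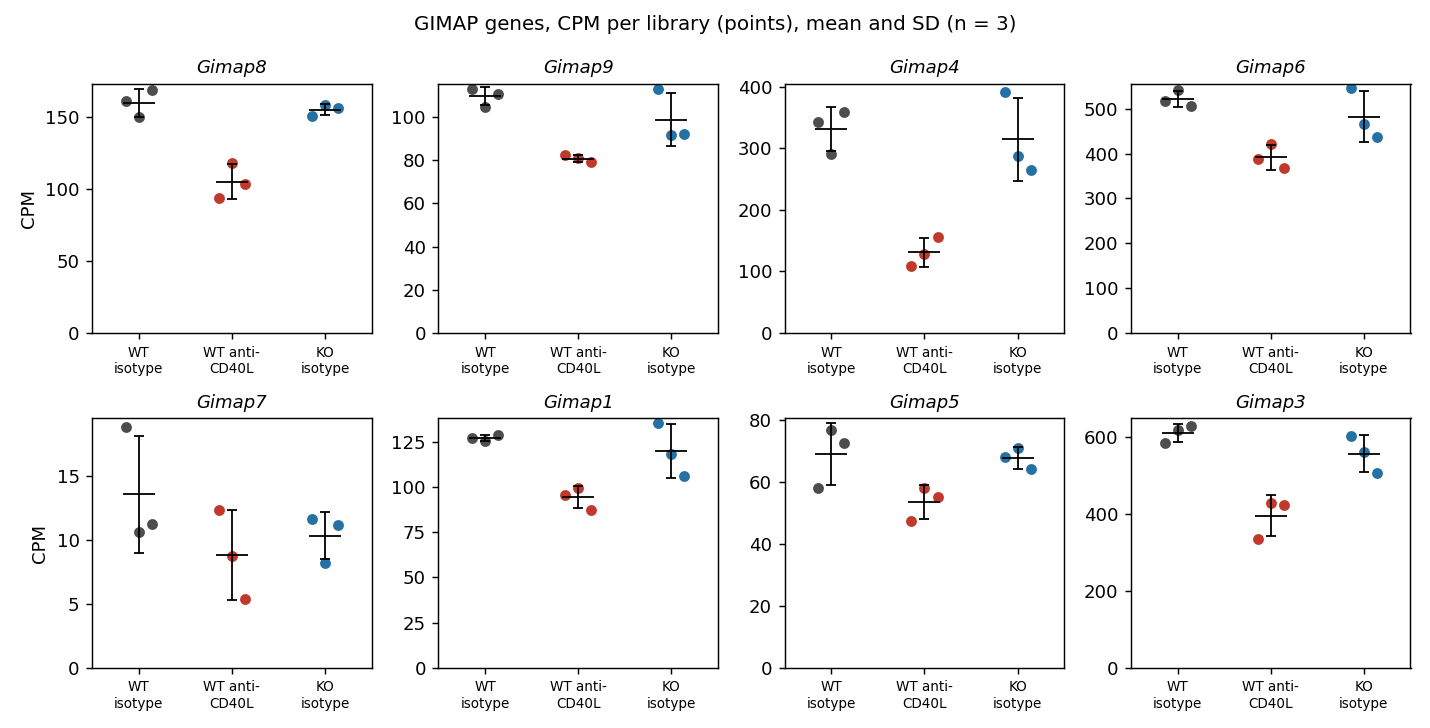
CPM of the 8 GIMAP genes (y axis, from 0) in each library (points, replicates 1 to 3 from left to right) of the 3 groups (x axis), in order along the chromosome, with the mean (bar) and SD (whiskers, n = 3). Gimap4 stands at 108 to 156 CPM in WT anti-CD40L and at 265 to 391 CPM in the other 6 libraries.

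The first comparison asked what binding of CD40L by antibody does in wild-type cells. All 8 GIMAP genes had lower mean levels in WT anti-CD40L than in WT isotype, and 6 fell: Gimap4, Gimap8, Gimap3, Gimap9, Gimap1 and Gimap6 (edgeR quasi-likelihood test over 11256 genes, adjusted p under 0.05). Of all tested genes 9.37% were called, 6.46% lower and 2.91% higher, and 51.8% had a log2 fold change below 0. Gimap4 had the largest fall of the 8, 2.54-fold, and the other 5 that fell did so by 1.33-fold to 1.54-fold. The median log2 fold change of the 8 was -0.51, against -0.01 for all tested genes. The family was proposed with results of these data known, so this count and the p-values below place each gene in the fit over all genes and are not independent evidence.

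Gimap4 was at 343, 290.35 and 359 CPM in WT isotype replicates 1 to 3 and at 108, 129 and 156 CPM in WT anti-CD40L replicates 1 to 3. The groups lay far apart, with the highest WT anti-CD40L library, replicate 3, well under the lowest WT isotype library. Its log2 fold change was -1.34 (SE 0.16; adjusted p = 0.000217 by edgeR). It ranked 297th from the lowest of 11256 tested genes.

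Gimap8, the longest transcript of the family, was at 161, 149.6 and 169 CPM in WT isotype and 93.7, 118 and 103 CPM in WT anti-CD40L (log2 fold change -0.60, SE 0.09; adjusted p = 0.00138 by edgeR). Gimap3, which sits close to Gimap5 in sequence, was at 587, 619 and 631 CPM in WT isotype and 335, 429 and 425 CPM in WT anti-CD40L (log2 fold change -0.63, SE 0.10; adjusted p = 0.00208 by edgeR). For both genes the groups did not overlap, and WT anti-CD40L replicate 1 was the lowest library. The calls of Gimap4, Gimap8 and Gimap3 were made in all 16 alternatives run, with adjusted p of at most 0.00191, 0.0119 and 0.0148.

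Gimap1, Gimap6 and Gimap9 fell less. Gimap1 was at 127, 125 and 129 CPM in WT isotype and 95.8, 99.6 and 87.5 CPM in WT anti-CD40L (log2 fold change -0.43, SE 0.10). Gimap6 was at 518, 541 and 506 CPM against 388, 422 and 367 CPM (log2 fold change -0.41, SE 0.09). Gimap9 was at 113, 105 and 111 CPM against 82.3, 80.9 and 79.1 CPM (log2 fold change -0.44, SE 0.09). None of the 3 overlapped between groups, which with Gimap3, Gimap4 and Gimap8 makes 6 of 8 members, against 17.2% of all tested genes lower without overlap. Adjusted p by edgeR was 0.0154, 0.0154 and 0.0121. Some of these calls were lost when 1 library was left out, although the log2 fold changes then stayed between -0.47 and -0.36. Gimap1 was not called without WT anti-CD40L replicate 1, WT isotype replicate 1 or WT isotype replicate 3 (adjusted p = 0.0519, 0.0641 and 0.067), nor Gimap6 without WT anti-CD40L replicate 1, WT isotype replicate 1 or WT isotype replicate 2 (0.057, 0.0577 and 0.0654). Gimap9 was not called without WT isotype replicate 1 or 3 (0.0626 and 0.0551).

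Gimap5 and Gimap7 were not called. Gimap5, which is needed for T cell survival, was at 57.9, 76.8 and 72.4 CPM in WT isotype and 47.2, 58.0 and 55.0 CPM in WT anti-CD40L. The groups overlapped through WT isotype replicate 1 and WT anti-CD40L replicate 2 (log2 fold change -0.37, SE 0.12; adjusted p = 0.0712 by edgeR). DESeq2, edgeR without the filter and the fit without WT isotype replicate 1 called it lower (adjusted p = 0.0442, 0.032 and 0.0435). Gimap7, the least abundant member, was at 18.8, 10.6 and 11.2 CPM in WT isotype and 12.4, 8.72 and 5.35 CPM in WT anti-CD40L. WT isotype replicate 1 was high and the rest overlapped (log2 fold change -0.58, SE 0.30; 95% interval -1.23 to 0.06; adjusted p = 0.229 by edgeR), and without that library the value was -0.27. It was -0.36 without WT anti-CD40L replicate 3 and -0.91 without WT anti-CD40L replicate 1. Gimap7 had 28 to 210 counts per library, and its coefficient of variation was 33.6% in WT isotype and 39.8% in WT anti-CD40L, where counting alone gives 8.92% and 13.5%.

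**Figure D2:**
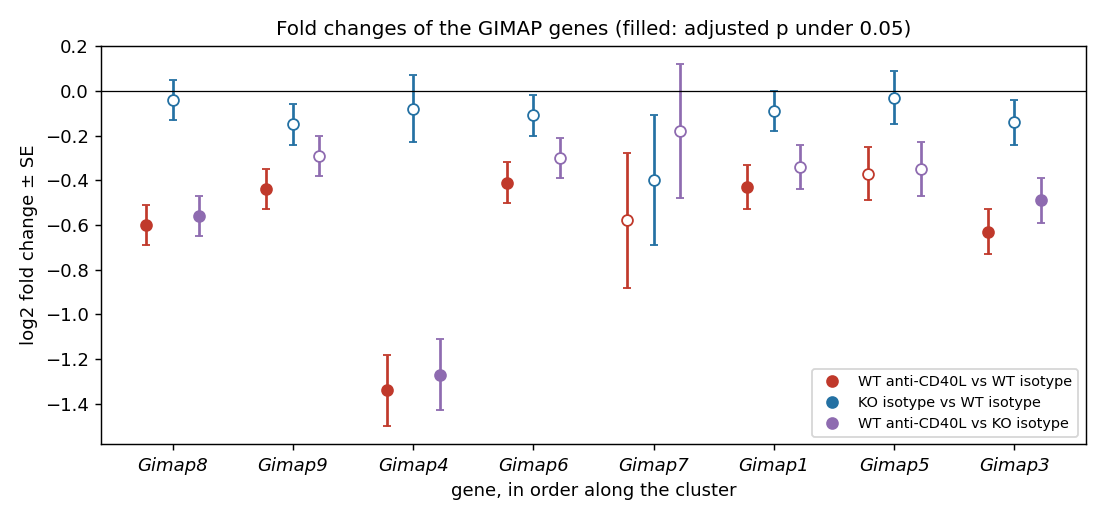
Log2 fold change (y axis) of each GIMAP gene (x axis, in chromosomal order) in the 3 comparisons, with the SE as whiskers; filled points had an adjusted p under 0.05 by edgeR. Red points (WT anti-CD40L against WT isotype) run from -1.34 to -0.37, while blue points (KO isotype against WT isotype) run from -0.40 to -0.03.

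The 8 genes summed to 1926, 1917 and 1987 CPM in WT isotype and to 1163, 1346 and 1278 CPM in WT anti-CD40L. They made up 0.193% ± 0.00496 of all gene counts in WT isotype and 0.126% ± 0.00999 in WT anti-CD40L (SD, n = 3). Within the sum, the makeup differed mainly at Gimap4. Its share went from 17.0% ± 1.62 of the family in WT isotype to 10.3% ± 1.6 in WT anti-CD40L, while Gimap3 stood at 31.5% ± 0.916 and 31.3% ± 2.26 and Gimap6 at 26.9% ± 1.4 and 31.1% ± 2.33. The ratio of Gimap4 to Gimap6 CPM was 0.662, 0.536 and 0.71 in WT isotype, 0.279, 0.305 and 0.424 in WT anti-CD40L and 0.714, 0.617 and 0.608 in KO isotype. Every WT anti-CD40L library was below every other library in this ratio. The ratio was looked at after its values were known and was not tested.

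**Figure D3:**
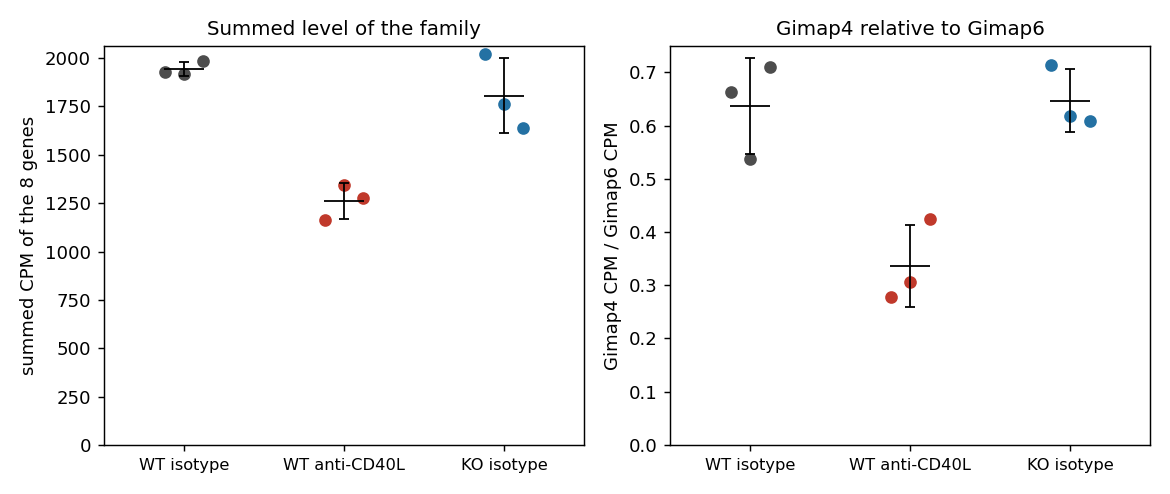
Left, summed CPM of the 8 GIMAP genes; right, CPM of Gimap4 divided by CPM of Gimap6 (y axes, both from 0), per library (points) in the 3 groups, with mean and SD (n = 3). The WT anti-CD40L libraries lie at 1163 to 1346 CPM and at ratios of 0.279 to 0.424, below the other 6 libraries in both panels.

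The second comparison asked what loss of CD40L in T cells does under the control antibody, taking the KO label at its word. No GIMAP gene was called, none had an unadjusted p under 0.05, and in all 8 the groups overlapped. The share of all genes called was 0.0% and the share with an unadjusted p under 0.05 was 5.77%, while groups lay apart in 7.62% with the libraries labelled KO lower and in 7.61% with them higher. None of the 8 was called by DESeq2, by limma-voom or by edgeR on unfiltered genes. The log2 fold changes were below 0 in all 8, as in 49.4% of all tested genes, and ran from -0.40 to -0.03, with a median of -0.10 against 0.00 for all tested genes. The lowest value is that of Gimap7, which was at -0.09 without WT isotype replicate 1.

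Gimap4 was at 391, 287 and 265 CPM in the libraries labelled KO, spanning the WT isotype values (log2 fold change -0.08, SE 0.15; 95% interval -0.40 to 0.25). Replicate 1 was the highest of the 9 libraries for Gimap4. Gimap3 was at 604, 561 and 507 CPM (95% interval -0.35 to 0.08) and Gimap8 at 151, 158 and 156 CPM (95% interval -0.24 to 0.15). Among the 3 libraries labelled KO, replicate 1 was the highest for Gimap3 and the lowest for Gimap8.

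Gimap1 was at 136, 118 and 106 CPM, Gimap6 at 547, 465 and 436 CPM and Gimap9 at 113, 91.6 and 92.0 CPM in the libraries labelled KO. Replicate 1 lay above all WT isotype libraries for Gimap1 and Gimap6 and within their range for Gimap9. Replicates 2 and 3 lay below all WT isotype libraries in each of these 3 genes. Their 95% intervals were -0.29 to 0.12, -0.31 to 0.09 and -0.35 to 0.05. Gimap5 was at 68.2, 71.1 and 64.1 CPM (95% interval -0.28 to 0.23) and Gimap7 at 11.6, 8.20 and 11.1 CPM (95% interval -1.03 to 0.22). For all members but Gimap7 the whole interval lay above the value of the same gene in the first comparison, which uses the same WT isotype libraries. That value has an error of its own, so this does not test the difference, which the third comparison does.

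The third comparison set WT anti-CD40L against KO isotype, and it also tests the difference between the first 2 comparisons, which share the WT isotype libraries. Gimap4, Gimap8 and Gimap3 were lower in WT anti-CD40L, so 3 of 8 members were called, against 6.83% of all tested genes, 5.04% lower and 1.79% higher. The log2 fold change was -1.27 (SE 0.16) for Gimap4, -0.56 (SE 0.09) for Gimap8 and -0.49 (SE 0.10) for Gimap3, with adjusted p by edgeR of 0.000375, 0.00247 and 0.0106. Gimap1, Gimap5, Gimap6 and Gimap9 did not overlap between these groups either but were not called (log2 fold changes of -0.34, -0.35, -0.30 and -0.29; adjusted p = 0.0513, 0.108, 0.0744 and 0.0895 by edgeR). Groups lay apart with the first lower in 15.9% of all tested genes. Gimap7 had a log2 fold change of -0.18 (SE 0.30; adjusted p = 0.767 by edgeR).

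Single libraries labelled KO moved this count. Without KO isotype replicate 3, Gimap1 and Gimap6 were called as well (adjusted p = 0.0146 and 0.0275), which gave 5 members. Without KO isotype replicate 2, Gimap3 was lost (adjusted p = 0.0609), which left 2. Without KO isotype replicate 1 no call changed, but the log2 fold changes of Gimap6 and Gimap9 were -0.19 and -0.17. Without WT anti-CD40L replicate 3, the library that stood apart, the members called lower were 6 in the first comparison and 3 in this one.

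**Figure D4:**
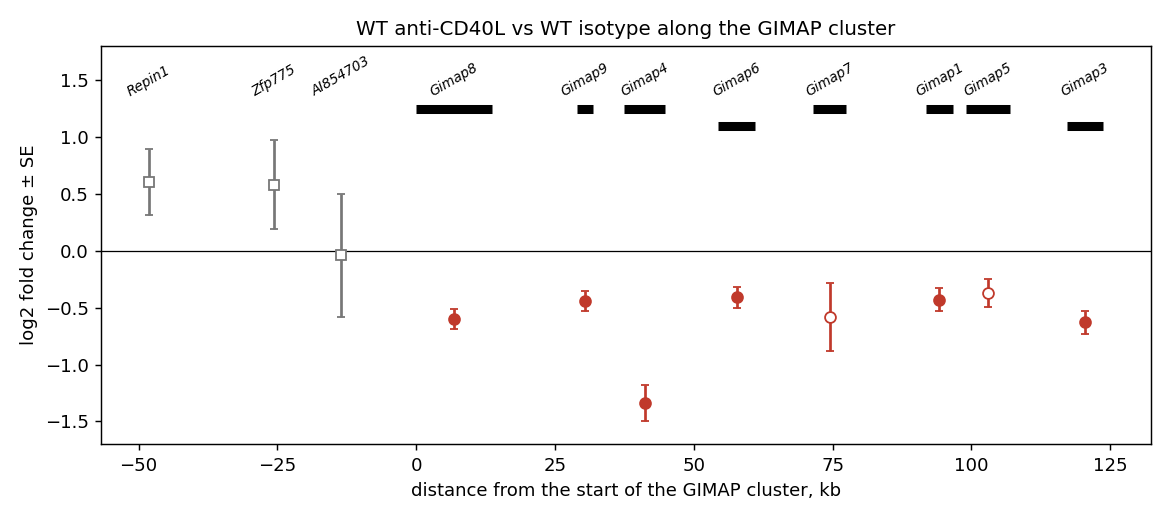
Log2 fold change with SE (y axis) in WT anti-CD40L against WT isotype, plotted at the middle of each GIMAP gene by distance from the start of the cluster (x axis, kb); black bars mark the genes, plus strand above minus strand. Filled points had an adjusted p under 0.05, and grey squares are the 3 nearest tested genes before the cluster, with values of -0.04 to 0.60. Gimap4 is the third gene of the cluster, between Gimap9 at -0.44 and Gimap6 at -0.41.

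No fall was called in the genes that flank the cluster. The nearest tested genes were AI854703, Zfp775 and Repin1, at 13.5 to 48.1 kb before the cluster, and Malsu1, Igf2bp3 and Tra2a, at 302.9 to 473.1 kb after it. None of these 6 was called in any of the 3 comparisons by edgeR, and their log2 fold changes in the first ran from -0.04 to 0.60. Tra2a was at 118 CPM in WT isotype, and the others were low, at 2.17 to 9.61 CPM. The SE of these low genes in the first comparison was 0.21 to 0.54. Falls as small as those of most GIMAP genes could therefore have been missed in them. In the first comparison, limma-voom and the fit without WT anti-CD40L replicate 3 called 1 of the 6 flanking genes higher. Tmem176a and Tmem176b, the coding genes next after Gimap3, had 4 and 9 counts over all 9 libraries, too few to test.

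Other genes followed the family's mean closely. Among 7963 named genes with a mean of at least 10 CPM, the 6 with the highest Pearson correlation to the mean log2 CPM of the 8 members over the 9 libraries were Otulinl (0.996), Slfn1 (0.992), Add3 (0.988), Sp100 (0.987), Rasa3 (0.986) and Saraf (0.986). Rasa3, which switches off Ras and Rap1, was at 225 ± 38.7 CPM in WT isotype, 82.4 ± 13.8 CPM in WT anti-CD40L and 194 ± 37.2 CPM in KO isotype (SD, n = 3). Saraf, a brake on calcium entry through store-operated channels, was at 235 ± 4.47, 118 ± 9.12 and 214 ± 37 CPM. Slfn1, a Schlafen protein gene of T cells, was at 127 ± 11.2, 69.1 ± 3.9 and 114 ± 21.6 CPM. Correlations here are carried by the level of the WT anti-CD40L libraries, and 308 genes reached 0.9. Without WT anti-CD40L replicate 3, 4 of the 6 were again among the highest 6, and Itgb7 and Ehd3 took the place of Sp100 and Rasa3.

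Among the members, Gimap1 and Gimap9 followed the mean of the other 7 genes most closely over the 9 libraries (r = 0.959 and 0.952). Gimap5 (0.705) and Gimap7 (0.433) did so least. These are descriptions over 9 libraries that share their group levels.

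Genes that act with GIMAP proteins or resemble them were read from lists chosen with these data known. Of 16 genes of the BCL-2 family, the ATG8 autophagy family and GSK3, 1 rose and none fell on anti-CD40L, a share no larger than the 9.37% called among all tested genes. The riser was Bcl2l1, the gene of the anti-apoptotic BCL-XL protein, from 86.2 ± 8.24 to 166 ± 33 CPM (SD, n = 3; adjusted p = 0.000537 by edgeR). The list's median log2 fold change was -0.17. In this comparison Bcl2l1 and the 6 GIMAP genes that fell went opposite ways, and a link between them was not tested. In WT anti-CD40L against KO isotype no gene of this list was called. Bcl2l1 had a log2 fold change of 0.39 there (SE 0.12; adjusted p = 0.0763 by edgeR) and was called higher in 3 of 16 alternatives.

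Of 23 transcription factors of T cell maintenance, 11 fell and none rose (median log2 fold change -0.33), where 6.46% of all tested genes fell and 2.91% rose. Klf2, which keeps naive T cells quiescent, fell from 194 ± 38.3 to 62.7 ± 8.59 CPM, Klf6 from 109 ± 18 to 50.3 ± 9.35 CPM and Klf13 from 248 ± 21.3 to 152 ± 17.4 CPM (SD, n = 3; adjusted p = 6.97e-05, 0.00061 and 0.00133 by edgeR). Their calls were made in all 16 alternatives. The list's count was 6 to 11 over the alternatives, and 6 without WT anti-CD40L replicate 1 or WT isotype replicate 1.

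Of the septins, 7 of 13 were tested, and Septin9 fell while Septin7 and Septin11 rose (log2 fold changes -0.32, 0.50 and 0.29; adjusted p = 0.0405, 0.0437 and 0.0451 by edgeR). None of these 3 calls was firm, since they were made in 7, 9 and 7 of 16 alternatives and leaving out any 1 of the 6 WT libraries ended at least 2 of them, as leaving out KO isotype replicate 2 did for Septin9 and Septin11, with adjusted p of up to 0.157 and 0.167 without WT isotype replicate 2 for Septin9 and Septin11 and 0.13 without WT isotype replicate 1 for Septin7.

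The interferon-inducible GTPases, immune GTPases of another kind, gave the lowest median of the lists, -1.30 over 16 tested genes, but only Gbp9 was called (log2 fold change -1.33, SE 0.27; adjusted p = 0.00903 by edgeR, and 0.0605 without WT anti-CD40L replicate 3). Over the alternatives 0 to 13 of the 16 were called lower, with 0 without WT anti-CD40L replicate 3 and 10 without KO isotype replicate 1. In KO isotype against WT isotype no member of these lists was called by edgeR. The smallest p in each list belonged to Bcl2l1, Tcf7, Septin1 and Iigp1, with log2 fold changes of 0.55, -0.26, -0.18 and -1.09. When 1 library was left out, Iigp1 ran from -2.39 without KO isotype replicate 1 to -0.24 without WT isotype replicate 3, and Septin1 from -0.26 without KO isotype replicate 1 to -0.095 without KO isotype replicate 3. DESeq2, limma-voom and edgeR without the filter called Bcl2l1 higher there (adjusted p = 0.0335, 0.0143 and 0.000225), and the last of these called Iigp1 lower (0.00774), and also Klf2 of the maintenance factors, which is named here after its values were seen. In WT anti-CD40L against KO isotype, 7 of the maintenance factors fell, led by Klf2, Klf6 and Runx1, and 3 interferon-inducible GTPases (Gbp9, Gbp8 and Gbp7) and 1 septin (Septin9) fell, against 5.04% of all tested genes. Over the alternatives 1 to 13 of the interferon-inducible GTPases were called lower in this comparison, with 1 when any WT anti-CD40L replicate was left out and 13 without the filter. Of these the calls of Gbp8, Gbp7 and Septin9 were lost in 6, 5 and 12 of 16 alternatives, each of them without WT anti-CD40L replicate 1, 2 or 3 (adjusted p of up to 0.16, 0.209 and 0.138). Leaving out KO isotype replicate 1 also ended the calls of Gbp8 and Septin9 (0.119 and 0.197), and leaving out WT isotype replicate 1 those of Gbp7 and Septin9 (0.0513 and 0.0802). Septin9 was further lost without KO isotype replicate 2 or WT isotype replicate 2 or 3 (0.176, 0.0617 and 0.0917).

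**Figure D5:**
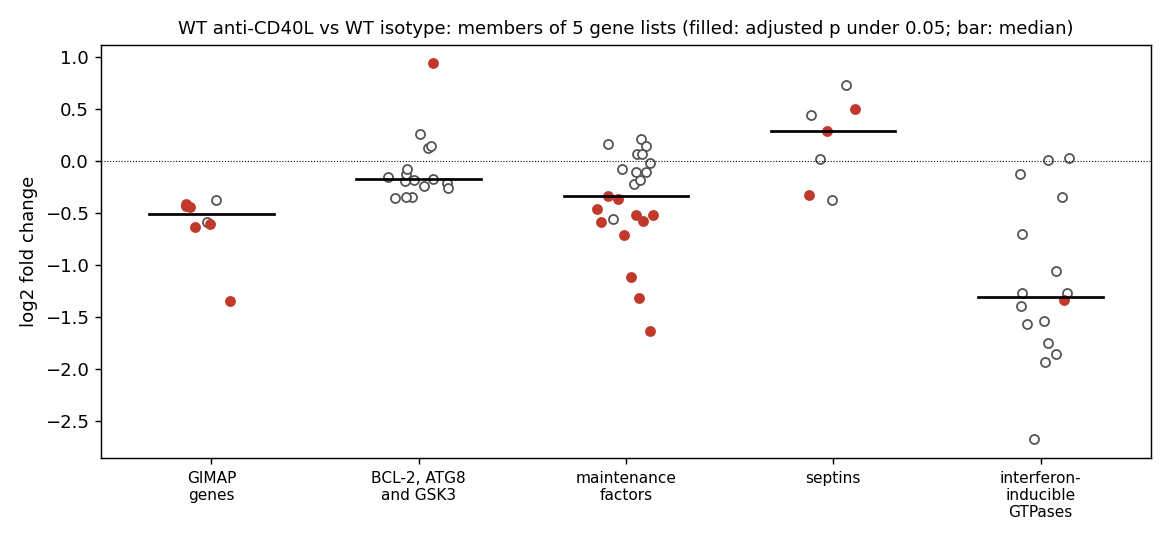
Log2 fold change in WT anti-CD40L against WT isotype (y axis) of the tested members of 5 gene lists (x axis); filled red points had an adjusted p under 0.05 by edgeR and bars are medians. All 8 GIMAP genes lie below 0 with a median of -0.51, while the septins have a median of 0.29.

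Markers of other cells were low, and some moved with the same groups. The 7 B cell markers with a row summed to 13.2 to 37.9 CPM in WT isotype, 1.72 to 13.3 CPM in WT anti-CD40L and 7.10 to 16.3 CPM in KO isotype. The 9 myeloid markers summed to 7.68 to 8.36, 2.69 to 6.12 and 5.12 to 17.7 CPM. Endothelial cells also express GIMAP genes, and their 7 markers summed to 72.6 to 108 CPM in WT isotype, 27.4 to 38.4 CPM in WT anti-CD40L and 60.1 to 92.7 CPM in KO isotype. Nearly all of this endothelial sum came from 1 gene, Pecam1, which had group means of 84.9, 31.6 and 77.0 CPM. Cdh5, Vwf, Kdr and Tek had 0 to 9 counts in each library, and Tie1 and Emcn had no count. The part of other cells in the GIMAP levels was not tested.

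Gimap4 had 5 transcript rows, and the kept one, NM_174990, held the most counts. NM_001243201 held 45.1% ± 1.18 of its count in WT isotype, 49.0% ± 2.34 in WT anti-CD40L and 45.7% ± 4.98 in KO isotype (SD, n = 3). Values in WT anti-CD40L (46.6% to 51.2%) lay above those in WT isotype (43.8% to 46.2%), and the exact permutation test gave p = 0.1, two-sided, the smallest that 3 against 3 libraries allow. KO isotype, at 42.0% to 51.4%, spanned both. In the other 3 rows of Gimap4 the WT groups overlapped. Over the 7 rows compared in Gimap1, Gimap4 and Gimap8, the exact permutation p of that row was 0.467 after Benjamini-Hochberg adjustment.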

How the data were processed

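RNA of the 9 libraries was sequenced, and the table deposited by the authors gives expected counts, not normalized and in steps of 0.5, for 42361 RefSeq transcript rows. Per the submitters' processing notes, CASAVA 1.8.2, HISAT2 2.1.0 and mm10 were used. No source used here names the counting tool or its use of strand. Rows were matched to symbols by RefSeq (GRCm38.p6) or GENCODE vM21, except 93 that kept their identifier. For each gene the row of highest total was kept and rounded to whole numbers, fractions up, since the design assumed whole counts. Transcript lengths came from GENCODE vM21.

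After filterByExpr and TMM scaling, 11256 genes were fitted with the quasi-likelihood test of edgeR 4.0.16 (R 4.3.3, robust) over all 9 libraries, with 1 term per group. P-values were adjusted by Benjamini-Hochberg over all tested genes at 0.05. The fit was also run on counts simulated from its own estimates of spread, which does not test how it handles a library that lies apart. Values are CPM, and log2 CPM used a prior count of 2. Alternatives were DESeq2 1.42.0, limma 3.58.1 (voom with quality weights), RLE scaling, no filter, the 2 groups alone, a replicate block, summed rows and leaving out each library.

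All 8 members were named whatever their result. Of each list, up to 3 called genes per direction were named by smallest p, or the gene of smallest p where none was called. The 6 genes most like the family left out predicted genes, pseudogenes and antigen receptor segments. Members and lists were chosen with earlier results of these data known. Results of 1 further gene list are not reported here.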

Additional observations from a re-analysis of the deposited data

How the results depend on the processing

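In WT anti-CD40L against WT isotype, all 8 members were lower in each of the 16 alternatives, and 4 to 6 were called when 1 library was left out. In KO isotype against WT isotype the count was 0 throughout, 0 to 0 when 1 library was left out. In WT anti-CD40L against KO isotype 3 were called, but 5 by DESeq2, 5 by limma-voom with quality weights and 5 without the filter, and 2 to 5 when 1 library was left out; the cause was not tested. Values near 0 changed sign in the last 2 comparisons. In KO isotype against WT isotype, Gimap5 was at 0.035 by limma-voom and ran from -0.138 to 0.059 when 1 library was left out, and Gimap4 ran from -0.26 to 0.033. In WT anti-CD40L against KO isotype, Gimap7 was at 0.126 by limma-voom and ran from -0.497 to 0.052. Over all tested genes, DESeq2 called 14.4% and limma-voom 14% where edgeR called 9.37% in the first comparison, and 10.8% and 13% where edgeR called 6.83% in the third; in KO isotype against WT isotype DESeq2 called 24 genes lower and 15 higher where edgeR called 0. Of the interferon-inducible GTPases, DESeq2 called 4, limma-voom 8 and edgeR without the filter 13 lower in the first comparison, against 1. The summed level of the family moved by less than 1 SD with RLE scaling.

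Replicate numbers are shared by the groups. Between same-numbered libraries, the 9 correlations of deviations from group means ran from -0.149 to 0.18. With 3 libraries per group, such correlations cannot show whether same-numbered libraries share more than a number. With the replicate number as a block, 6, 0 and 3 members were called in the 3 comparisons, as without it. Counts of 28 to 210 per library limit what can be said of Gimap7.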
